A study of Rattus norvegicus with 36 samples.

Results

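LOC102550137, Mab21l3, and Gsg1 are 3 little-studied rat genes, out of 25597 gene names on the array and 23940 genes tested, that were chosen by their measured differences between DQ-12 and vehicle lungs in these same arrays. Those differences are therefore given as a description, without a test. Tests are given for other genes and for the relation of the 3 genes to one another among DQ-12 rats, which the choice did not use. DQ-12 is a crystalline silica dust. Female Sprague Dawley rats, 13 weeks old when treated, received 10 mg of DQ-12 in saline by instillation into the trachea, or saline alone (vehicle), and RNA from the accessory lobe of the lung was measured 1, 30, and 180 days later (D1, D30, and D180). Each of the 6 groups held 6 rats, and each rat had 1 single-color array. All 10 alveolar type 2 and all 8 alveolar type 1 marker genes that were tested gave a signal well above background on all 36 arrays, as lung tissue should. In whole lobes, fewer cells of a type and less RNA per cell cannot be told apart.

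Mab21l3 belongs to the Mab-21 family, which is named after a worm gene of cell fate and shares a nucleotidyltransferase fold with cGAS, the cytosolic DNA sensor. Gsg1, germ cell associated 1, is known from the testis, where its protein binds the testis poly(A) polymerase encoded by Papolb, and it is related to the claudin-like Gsg1l proteins. LOC102550137 has no assigned function, and the array annotates it as a predicted non-coding RNA. Silica particles deposited in the lung are taken up by macrophages and keep injuring them.

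Each gene was measured by 1 probe of 60 bases in 1 spot, so a gene level here is the level of 1 short stretch of transcript. The LOC102550137 probe is shown whole, because it is what defines this unnamed transcript on the array. For Mab21l3 and Gsg1 the first 30 bases are shown. The capitals mark AATAAA, the usual signal for cutting and polyadenylation near the end of a transcript, searched on the probe strand only.
LOC102550137: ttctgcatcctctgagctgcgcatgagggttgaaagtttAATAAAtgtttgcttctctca
Mab21l3: atgcttctcaattccagggaatcctttgtg
Gsg1: ttgggaagcaggctaagccctaccataggt
By the array's annotation (rat build rn4), the LOC102550137 probe lies on the minus strand of chromosome 4 (chr4:183615580-183615639), the Gsg1 probe on the minus strand of the same chromosome (chr4:172191998-172192057), and the Mab21l3 probe on the minus strand of chromosome 2 (chr2:196904629-196904688). AATAAA occurred 1 time in the LOC102550137 probe and in neither of the others, and 9.04% of the 45598 probes hold it. No other probe shared more than 14 bases in a row with any of the 3 probes, on either strand. Whether the Mab21l3 and Gsg1 probes lie in coding or untranslated exons was not determined here.

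LOC102550137 was dim in vehicle lungs and bright in every DQ-12 lung. At D1, its normalized log2 signal ran from 2.03 to 4.26 (median 3.47) in vehicle rats and from 7.27 to 9.19 (median 8.42) in rats given DQ-12. One month after treatment, at D30, it ran from 2.05 to 4.31 (median 4.03) and from 6.90 to 7.93 (median 7.31), and at D180 from 2.46 to 4.80 (median 3.64) and from 8.43 to 11.22 (median 9.37), respectively. No vehicle rat reached the lowest DQ-12 rat at any time, and the smallest gap was 2.59 on the log2 scale, at D30. The fitted log2 difference, DQ-12 minus vehicle, was 4.92 ± 0.45 (SE, n = 6 per group) at D1, 3.64 ± 0.45 at D30, and 5.81 ± 0.45 at D180. Only 3, 1, and 1 of the 6 vehicle arrays were well above background at these times, whereas all 18 DQ-12 arrays were, so the vehicle side of these differences is mostly background. For a bound, each vehicle array was set to the higher of the probe's own signal and the lowest signal of any probe well above background. LOC102550137 was then at least 22.2-fold, 9.77-fold, and 52.5-fold higher in DQ-12 rats. These bounds hold only for the background subtraction used here and for a model without a term for slide or scan date. A different background correction, described below, gave smaller folds. With slide as a block in the model, the log2 differences were 4.32, 3.27, and 4.65, also below the bounds. The bounds are approximate, since the lowest signal of any probe well above background is no detection limit for every spot. At D180, a vehicle spot at 4.80 was not well above background, while 1 at 4.33 on another array was.

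The order of the LOC102550137 group means was DQ-12 at D180 (9.52 ± 1.01, SD), DQ-12 at D1 (8.28 ± 0.80), and DQ-12 at D30 (7.36 ± 0.42), followed by the 3 vehicle groups between 3.36 and 3.72. The DQ-12 groups of D180 and D30 did not overlap. The DQ-12 groups of D30 and D1 overlapped, as did those of D1 and D180, and the 3 vehicle means lay within 0.36 of each other with SDs of 0.79 to 0.86. LOC102550137 thus had its lowest DQ-12 level at the middle time. No scan date was shared between times, so time and scan date cannot be told apart in this order.

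Mab21l3 was not well above background on any of the 18 vehicle arrays, so its difference has only a lower bound. Its log2 signal at D1 ran from 1.94 to 3.06 (median 2.93) in vehicle rats and from 5.56 to 6.85 (median 5.77) in rats given DQ-12. At D30, the vehicle rats ran from 1.95 to 3.45 (median 2.65) and the DQ-12 rats from 6.34 to 8.59 (median 7.18). At D180, the vehicle rats ran from 1.89 to 4.59 (median 3.11) and the DQ-12 rats from 4.92 to 8.53 (median 7.03). All 18 DQ-12 arrays were well above background, and no vehicle rat overlapped with the DQ-12 rats of its time, but at D180 the gap between the highest vehicle and the lowest DQ-12 rat was only 0.33. Mab21l3 was at least 6.02-fold higher in DQ-12 rats at D1, at least 11.8-fold higher at D30, and at least 9.04-fold higher at D180. These bounds were set in the same way as for LOC102550137, are approximate for the same reason, and hold only for the same background subtraction and model. The measured log2 differences, in which the vehicle side is background, were 3.26 ± 0.46 (SE), 4.67 ± 0.46, and 3.65 ± 0.46.

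The highest Mab21l3 mean was that of DQ-12 rats at D30 (7.28 ± 0.85, SD), ahead of D180 (6.86 ± 1.19) and D1 (5.95 ± 0.49). The ranges of all 3 DQ-12 groups overlapped one another, and D30 and D180 differed by 0.42, less than either SD. Mab21l3 thus differed from LOC102550137 in which time gave the highest and the lowest DQ-12 mean. Time and scan date cannot be told apart for Mab21l3 either.

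Gsg1 was also dim in vehicle lungs. At D1, the vehicle rats lay between 2.01 and 4.60 (median 3.04, log2 signal) and the DQ-12 rats between 5.81 and 7.05 (median 6.65). At D30, the vehicle rats lay between 2.20 and 4.20 (median 3.54) and the DQ-12 rats between 6.24 and 7.98 (median 6.55). At D180, the vehicle rats lay between 2.22 and 4.32 (median 3.16) and the DQ-12 rats between 6.04 and 10.08 (median 8.15). The groups did not overlap at any time, with gaps of 1.21, 2.04, and 1.72. The fitted log2 difference was 3.29 ± 0.50 (SE) at D1, where 2 of 6 vehicle arrays were well above background, and 3.32 ± 0.50 at D30, where 1 was. With each vehicle array set in the same way as for LOC102550137, Gsg1 was at least 6.58-fold higher at D1 and at least 7.27-fold higher at D30. At D180, where no vehicle array was well above background, Gsg1 was at least 25.9-fold higher in DQ-12 rats, with a measured log2 difference of 5.09 ± 0.50. The Gsg1 bounds, too, are approximate and hold only for the background subtraction used here and a model without a term for slide or scan date. With slide as a block in the model, the log2 differences of Gsg1 were 2.09, 3.53, and 4.00 at D1, D30, and D180. Those of D1 and D180 lie below the bounds.

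The Gsg1 means of DQ-12 rats at D1 (6.59 ± 0.46, SD) and D30 (6.79 ± 0.66) differed by 0.20, less than either SD. The mean at D180 was 8.29 ± 1.42, with a range that took in all DQ-12 rats of D1 but for the lowest. Between these Gsg1 means, too, time and scan date cannot be told apart. Rat 2 had the highest Gsg1 signal of the D180 group (10.08) and rat 6 the lowest (6.04). The same 2 rats had the highest (8.53) and the lowest (4.92) Mab21l3 signals of that group. For LOC102550137, rat 4 was the highest (11.22), rat 2 the second highest (10.06), and rat 6 the second lowest (8.69).

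**Figure D1:**
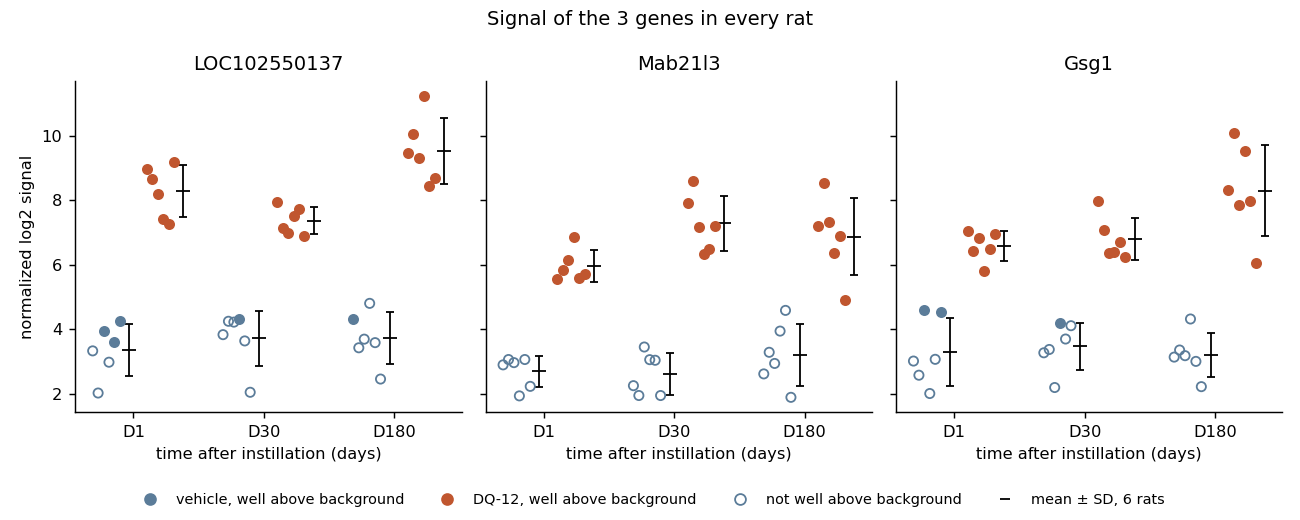
Normalized log2 signal (vertical axis) of LOC102550137, Mab21l3, and Gsg1 in vehicle and DQ-12 rats at D1, D30, and D180, with 1 point per rat, open where the probe was not well above background, and black bars for the mean ± SD of 6 rats. In each panel all DQ-12 points lie above all vehicle points of the same time, with the narrowest gap (0.33) for Mab21l3 at D180.

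All 3 genes were DEGs (fold change of at least 2 and adjusted p under 0.05, limma) at all 3 times, as the choice of the genes required, and nothing is read from that count. Of the 23940 genes tested, 3.07% were DEGs at D1, 1.05% at D30, and 3.63% at D180 (736, 252, and 869 genes). These counts depended on the processing, with 214, 102, and 326 DEGs after normexp background correction, and 199 at D1 and 482 at D180 when blocked on slide. When blocked on scan date, the D1 contrast rested on 1 vehicle array, so its count is not given. Under scaling of the arrays by their 75th percentile, the DEGs at D1 were 340 higher and 576 lower, against 484 higher and 252 lower with quantile normalization. All 3 passed the filter on dim probes on their vehicle arrays alone, with 16, 13, and 16 of 18 vehicle arrays above the 95th percentile of the negative controls, where 6 arrays were enough.

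The direction of the 9 differences was the same in every processing tried, but their size depended on the background correction. The normexp background model was run with an offset of 50 added to every intensity, which keeps dim signals from approaching 0. The share of the offset in the sizes that follow was not tested. With normexp, the log2 difference of LOC102550137 was 2.37, 1.53, and 3.36 at D1, D30, and D180. That of Mab21l3 was 0.90, 1.66, and 1.38, and that of Gsg1 was 1.11, 1.24, and 2.45. As folds these are 5.19, 2.88, and 10.3 for LOC102550137, 1.87, 3.15, and 2.61 for Mab21l3, and 2.15, 2.36, and 5.46 for Gsg1. All 9 folds are below the bounds given above, which therefore do not hold across background corrections. Mab21l3 at D1 was then under the 2-fold threshold. Every DQ-12 rat still lay above every vehicle rat of its time for all 3 genes.

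The arrays were scanned on 11 dates, none of which was shared between times. At D1, the 6 DQ-12 arrays shared a scan date with 1 vehicle array, and against that array the log2 difference was 4.33 for LOC102550137, 2.99 for Mab21l3, and 1.99 for Gsg1. At D30, the 2 dates that held both groups gave 4.27 and 3.02 for LOC102550137, 4.20 and 4.19 for Mab21l3, and 3.10 and 3.61 for Gsg1. At D180, they gave 5.32 and 5.01 for LOC102550137, 4.51 and 3.59 for Mab21l3, and 5.20 and 4.63 for Gsg1. All 15 values within a date were above 0, and within each date every DQ-12 rat was above every vehicle rat. Both follow from the separation of the groups over all rats, so only the sizes add information. The largest shift was that of Gsg1 at D1, from 3.29 over all rats to 1.99.

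**Figure D2:**
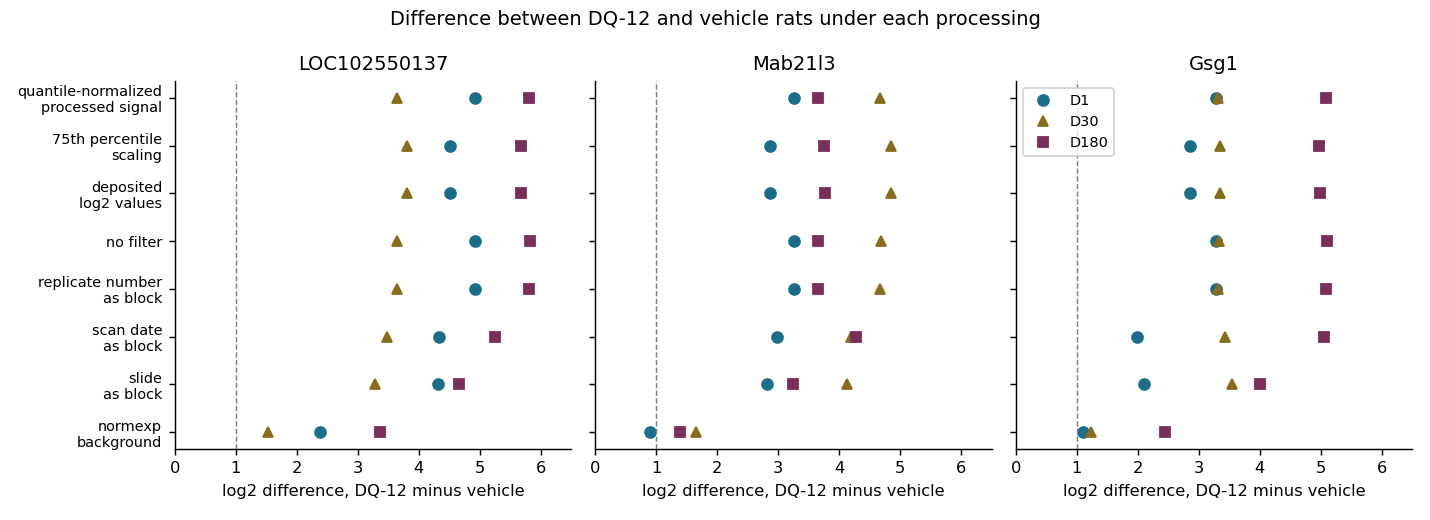
Log2 difference, DQ-12 minus vehicle (horizontal axis), of the 3 genes at D1, D30, and D180 under 8 ways of processing (rows), with the dashed line at a 2-fold difference. All points lie above 0, and those with normexp background correction are the lowest of each gene and time, with Mab21l3 at D1 at 0.90, left of the line.

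The genes next to the 3 genes on the chromosome showed no comparable difference. For LOC102550137, the neighbours by the array's own coordinates were taken, since the RefSeq gene table (assembly GRCr8) did not list it. Sspn, which encodes sarcospan of the dystrophin complex and whose probes lie 36.2 and 37.0 kb away, had log2 differences of 0.19, -0.16, and -0.49, the last with an adjusted p of 0.0398 and less than 2-fold. Itpr2, a calcium channel of the endoplasmic reticulum whose probe lies 62.0 kb away on the same strand as that of LOC102550137, had log2 differences of 0.16, -0.44, and 0.00 (adjusted p 0.558, 0.126, and 0.997, limma). LOC102553163 lay between -0.29 and -0.37, and LOC102550089, the nearest probe, did not pass the filter on dim probes.

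LOC103691652, Slc22a15, and Nhlh2 lie near Mab21l3 in the RefSeq table, and none of these was a DEG at any time. LOC103691652, a long non-coding RNA, had log2 differences of 0.71, 0.14, and 0.25 ± 0.39 (SE), and Nhlh2, a transcription factor gene, of -0.88, 0.15, and 0.36 ± 0.38, both with under 6 arrays of each DQ-12 group well above background. Slc22a15, a transporter gene whose probe is 48.7 kb from that of Mab21l3, had log2 differences of 0.02, -0.04, and 0.01, the SE being 0.12.

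Fam234b overlaps Gsg1 in the RefSeq table, and its probe lies 1.59 kb from the Gsg1 probe on the opposite strand. Its log2 differences were -0.27, -0.38, and -0.41 (adjusted p 0.365, 0.323, and 0.146, limma), with all of its arrays well above background. Pbp2 differed by 0.17 or less in size at all 3 times (SE 0.53). Emp1, an epithelial membrane protein gene, rose by 1.05 ± 0.14 at D180 (adjusted p 9.19e-07) and had log2 differences of 0.08 and 0.16 at D1 and D30. It was the only DEG among the neighbours of the 3 genes named here. The pseudogene LOC120102674 had no probe on the array.

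None of the tested relatives of Mab21l3 or Gsg1 was a DEG, where 1.05 to 3.63% of all genes were. Of the 11 listed relatives of Mab21l3, 10 had a probe and 9 were tested (Itprip had no probe and Mab21l1 was too dim), and their median log2 difference was 0.23, 0.15, and -0.06 at D1, D30, and D180, beside medians of -0.01, -0.02, and -0.03 over all genes. Cgas had the highest values, 0.78, 1.06, and 0.80 ± 0.35 (SE), with adjusted p-values of 0.133, 0.0841, and 0.125. Tmem102 was higher by 0.69 at D1 (adjusted p 0.00165), Mb21d2 lower at D1 (log2 difference -0.63, adjusted p 0.000298) and D180 (-0.35, adjusted p 0.0347), and Mab21l4 lower at D180 (-0.57, adjusted p 0.0147), all by less than 2-fold. Mab21l2, Mief1, Mief2, Itpripl1, and Itpripl2 lay between -0.21 and 0.62, with adjusted p-values of 0.306 or more.

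Gsg1l, Gsg1l2, and Papolb, the relatives of Gsg1 and the gene of its testis partner, were tested and 0 of 3 were DEGs, with median log2 differences of 0.43, 0.24, and -0.20. Papolb lay at 0.43, 0.25, and -0.20 ± 0.72 (SE), and Gsg1l2 was well above background on 1 of 36 arrays. Of the 8 listed testis germ cell genes, 7 were tested, 0 were DEGs at any time, and Ddx4, a defining germ cell gene, was well above background on 0 arrays. With 1.05 to 3.63% of all genes called and lists this short and dim, these counts of 0 say little about germ cell genes.

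**Figure D3:**
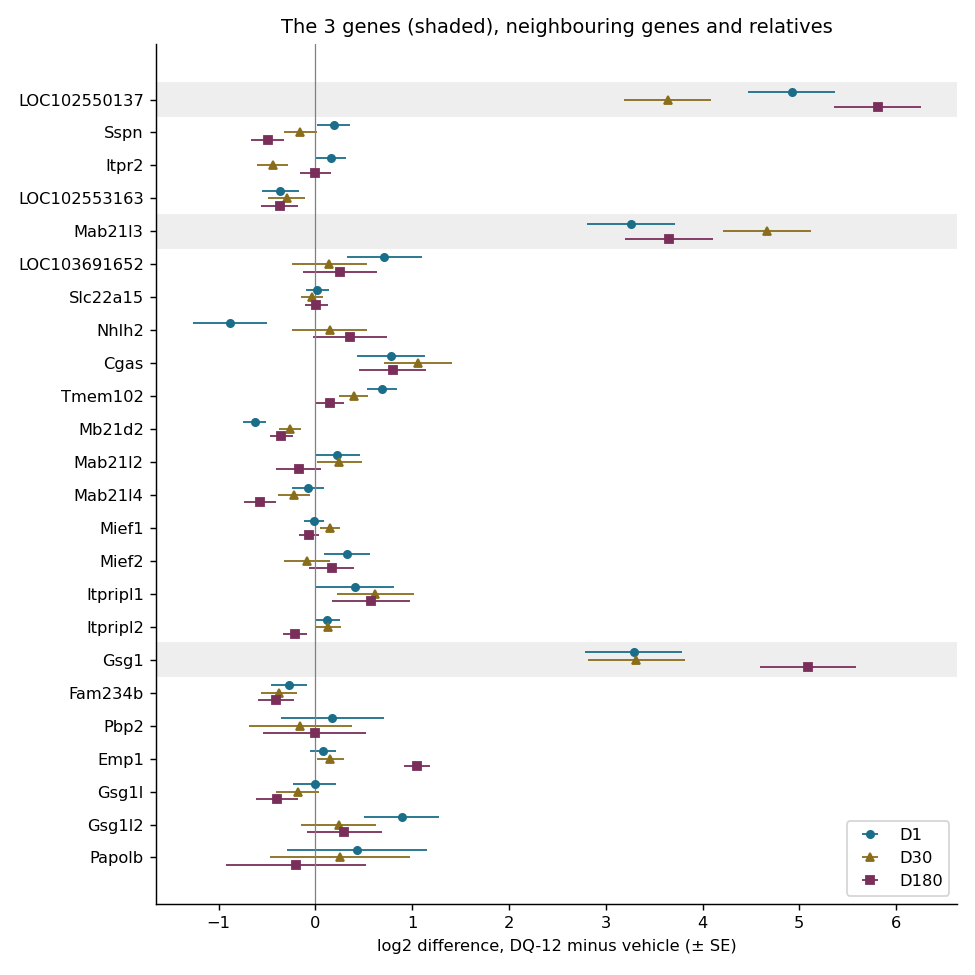
Log2 difference, DQ-12 minus vehicle (horizontal axis, bars ± SE), at D1, D30, and D180 for the 3 genes (shaded rows), each followed by the neighbours and relatives described here. The shaded rows lie between 3.26 and 5.81, and the other rows between -0.88 (Nhlh2 at D1) and 1.06 (Cgas at D30).

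The 3 genes varied among the rats of a group more than most genes did. Their SD among DQ-12 rats, pooled over the 3 times, was 0.78 for LOC102550137, 0.89 for Mab21l3, and 0.94 for Gsg1 on the log2 scale, beside a median of 0.33 over all genes. These SDs exceeded those of 88.7, 93.3, and 94.6% of the genes. Genes of like signal were not compared separately, so the part of signal level in these shares was not tested. The deviation of each rat from the mean of its own group is independent of the difference that chose the genes, so it was used to ask whether the 3 genes and other genes were high in the same rats (18 DQ-12 rats, time point in the model).

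LOC102550137 and Gsg1 were high in the same DQ-12 rats. Pearson's r was 0.69 (permutation within groups, 2-sided, p = 0.00704) and Spearman's rho was 0.75 (permutation p = 0.00177). Without the 2 rats farthest from the median in LOC102550137, r was 0.67. Within D1, D30, and D180, r was 0.73, 0.69, and 0.74 (exact permutation p = 0.0986, 0.101, and 0.0917, n = 6 each). With scan date as a covariate r was 0.65 (permutation p = 0.00346). LOC102550137 also correlated with the percentage of probes well above background on the array (r = 0.55, permutation p = 0.0434, rho = 0.58, permutation p = 0.0228, and r = 0.46 without the 2 rats farthest out), and with that percentage as a covariate the r of LOC102550137 and Gsg1 was 0.63 (permutation p = 0.0123). The p-values are unadjusted for the 3 pairs of genes compared, and in the fit across all genes the slope of Gsg1 on LOC102550137 had an adjusted p of 0.952 (limma).

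Mab21l3 and Gsg1 gave r = 0.58 (permutation p = 0.0564) but rho = 0.07 (permutation p = 0.832). That r rested on rats 2 and 6 of D180, without which it was -0.01, and without rat 6 alone it was 0.28 (permutation p = 0.347). Within D1, D30, and D180, r was -0.77, 0.59, and 0.77 (exact permutation p = 0.0736, 0.232, and 0.0875), with a turn of sign at D1. Mab21l3 and LOC102550137 gave r = 0.03 (permutation p = 0.928) and rho = -0.05 (permutation p = 0.886), and r = 0.16 without the 2 rats farthest out. By time, the r of this pair was -0.49, -0.15, and 0.25 (exact permutation p = 0.328, 0.746, and 0.633).

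**Figure D4:**
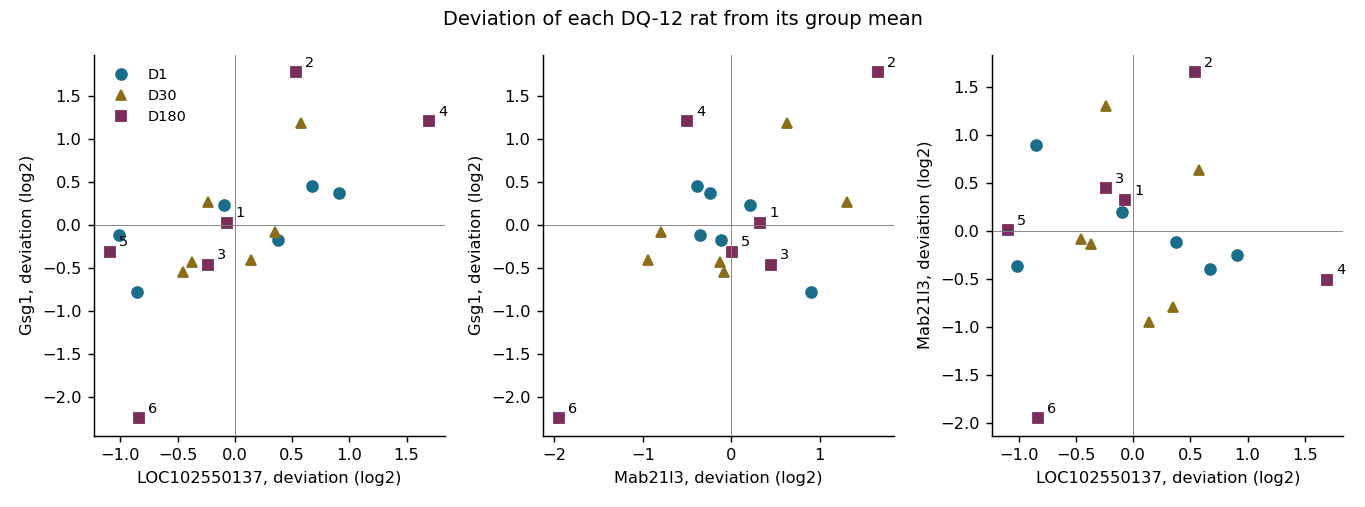
Deviation of each of 18 DQ-12 rats from its group mean (log2 scale, both axes) for the 3 pairs of genes, with the rats of D180 numbered. LOC102550137 and Gsg1 rise together at all 3 times (r = 0.69), while the slope seen for Mab21l3 and Gsg1 comes from rats 2 and 6 of D180.

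Genes of several cell types differed in the same DQ-12 groups in which the 3 genes were high. The cell type lists were written with earlier results of these data known, so their counts of DEGs are a description and no test. Of 25 macrophage genes, 3, 11, and 12 were DEGs at D1, D30, and D180, all higher, where 3.07, 1.05, and 3.63% of all genes were DEGs. Some macrophage genes were lower by less than 2-fold, namely Mertk (log2 difference -0.67, adjusted p 0.000637), Pparg (-0.54, 0.000942), and Lpl (-0.51, 0.024) at D1 and Cd163 (-0.89, 0.00191) and Mertk (-0.41, 0.0343) at D180 (limma). The mean log2 signal over this list was 9.18 to 9.60 in vehicle and 9.85 to 10.11 in DQ-12 rats at D1, 9.02 to 9.39 and 9.99 to 10.54 at D30, and 9.31 to 9.70 and 10.7 to 11.18 at D180, with no overlap and with no gene of the list below background on all arrays. Of 16 airway secretory genes, 3, 3, and 5 were DEGs, all higher, and Muc5ac and Ltf were above background on 0 arrays. The median log2 difference of this list was near 0, at 0.12, -0.08, and 0.09. Scgb1a1, Scgb3a1, Scgb3a2, and Agr2 had log2 differences below 0 at all 3 times. Of these, only Scgb3a2 at D1 had an adjusted p under 0.05 (-0.41, adjusted p 0.0288, limma). The mean log2 signal of the airway secretory list was 8.58 to 9.30 and 9.22 to 10.02 at D1, 8.74 to 9.15 and 9.14 to 9.67 at D30, and 8.32 to 8.89 and 9.28 to 9.92 at D180 in vehicle and DQ-12 rats, respectively, with an overlap at D1 and D30. Of 8 neutrophil genes, 1, 2, and 4 were DEGs, all higher, and Elane was above background on 0 arrays. The neutrophil list ran from 6.91 to 7.33 in vehicle and from 7.41 to 8.03 in DQ-12 rats at D1, from 6.88 to 7.61 and 7.48 to 8.40 at D30, where they overlapped, and from 7.04 to 7.69 and 7.98 to 8.60 at D180. Of the lymphocyte and plasma cell list, Jchain was a DEG at D30 and D180 (1.36 and 2.27) and Mzb1 at D180 (2.05), and of the mast cell list, Cma1 (1.28) and Tpsab1 (1.57) were DEGs at D180. The endothelial and alveolar type 1 lists were lower at D180, without overlap between the groups and with 0 DEGs. The endothelial list ran from 14.14 to 14.24 in vehicle and from 13.35 to 13.79 in DQ-12 rats, and the alveolar type 1 list from 14.89 to 15.23 and from 14.49 to 14.68. The part of these cells in the levels of LOC102550137, Mab21l3, and Gsg1 was not tested.

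No gene tracked LOC102550137, Mab21l3, or Gsg1 among DQ-12 rats at an adjusted p under 0.05 (0 of 23939 genes for each, 0%, limma slope). With normexp background correction, 5 genes tracked Mab21l3, 6 tracked Gsg1, and 0 tracked LOC102550137. At an unadjusted p under 0.05 there were 1206, 1793, and 1559 genes, which are 5.04, 7.49, and 6.51% of those tested. The values of r that follow are therefore a description of 18 rats. Over all genes, the median r was 0.01 with each of the 3 genes, and the quartiles lay between -0.18 and 0.20 for LOC102550137, between -0.18 and 0.22 for Mab21l3, and between -0.17 and 0.19 for Gsg1.

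Of 23859 genes with an r, 12206 had an r above 0 with LOC102550137, 12182 with Gsg1, and 12266 with Mab21l3. With LOC102550137, 18 of 25 macrophage genes had r above 0 (median 0.14), and whether the 3 genes differ in such counts was not tested. Capg, which caps actin filaments, had the highest (r = 0.64, rho = 0.73), at 0.95, 0.70, and 0.58 within D1, D30, and D180, and Lpl, lipoprotein lipase, the lowest (r = -0.55, rho = -0.54). With Gsg1, 15 of 25 were above 0 (median 0.18). Mmp12, the macrophage elastase gene, had the highest (r = 0.71, rho = 0.56), at 0.31, 0.77, and 0.85 within the 3 times, and Lpl again the lowest (-0.57). With Mab21l3, 10 of 25 were above 0 (median -0.16), from 0.30 (Fcgr1a, an Fc receptor) to -0.57 (Adgre1, which encodes F4/80). The r of Mab21l3 and Adgre1 was 0.86 within D1, -0.60 within D30, and -0.86 within D180, and -0.24 without the 2 rats farthest out.

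Among epithelial genes, Slc26a4, the anion exchanger pendrin of airway secretory cells, had the highest r of its list with all 3 genes, 0.66 with LOC102550137, 0.52 with Mab21l3, and 0.78 with Gsg1 (rho = 0.54, 0.35, and 0.60). With Gsg1 it was 0.08, 0.79, and 0.89 within D1, D30, and D180, and 0.71 without the 2 rats farthest out. With LOC102550137 it was 0.57 without the 2 rats farthest out. With Mab21l3 it was 0.20 without them and was 0.07 within D1. Slc26a4 itself rose in DQ-12 rats, by 4.03, 4.52, and 5.22 on the log2 scale (adjusted p 1.39e-10, 3.31e-11, and 4.81e-13, limma). Elf3, an epithelial transcription factor gene, had the highest r of the stressed or transitional epithelium list with Mab21l3 (r = 0.75, rho = 0.49) and with Gsg1 (r = 0.73, rho = 0.64). Without the 2 rats farthest out, these were 0.55 and 0.50. With LOC102550137, the highest gene of that list was Epcam (0.48), and Ccno, a gene of cilium formation, reached 0.62 (0.76, 0.47, and 0.80 by time). The median r of the airway secretory list was 0.08, 0.03, and 0.07 with LOC102550137, Mab21l3, and Gsg1, near that of all genes. Of its 16 genes, 10, 10, and 9 were above 0, and the lowest were Scgb3a2 (-0.22), Scgb1a1 (-0.49), and Scgb1a1 (-0.20), respectively. The median of the stressed or transitional epithelium list was 0.04, 0.24, and 0.24. Of its 12 genes, 7, 8, and 10 were above 0, and the lowest were Cdh1 (-0.39), Krt8 (-0.33), and Cdh1 (-0.09), respectively. In the ciliated list, Dnah5 had the lowest r with LOC102550137 (-0.31).

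For the other lists, the median r with LOC102550137 went from -0.37 (endothelial) to 0.20 (alveolar type 2, with Napsa at 0.51). With Mab21l3 it went from -0.34 (lymphocyte and plasma cell, Jchain at -0.53) to 0.24 (testis germ cell, of which 3 of 7 genes were well above background on under 6 arrays). With Gsg1 it went from -0.31 (endothelial, all 6 genes below 0, Tek at -0.42) to 0.24 (alveolar type 2, 9 of 10 genes above 0). Tagln, a smooth muscle and myofibroblast gene, had r = -0.63 with Mab21l3 (rho = -0.37). Lists of the ciliated, neutrophil, mast cell, basal, alveolar type 1, and fibroblast classes had medians between -0.23 and 0.20. Tmem102 was the relative of Mab21l3 with the highest r to it (0.70, and 0.32 without the 2 rats farthest out). Over the 90 pairs of a member with the highest or lowest gene of a list, the lowest adjusted p of the slope was 0.262, and 80 pairs kept their sign without the 2 rats farthest out.

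**Figure D5:**
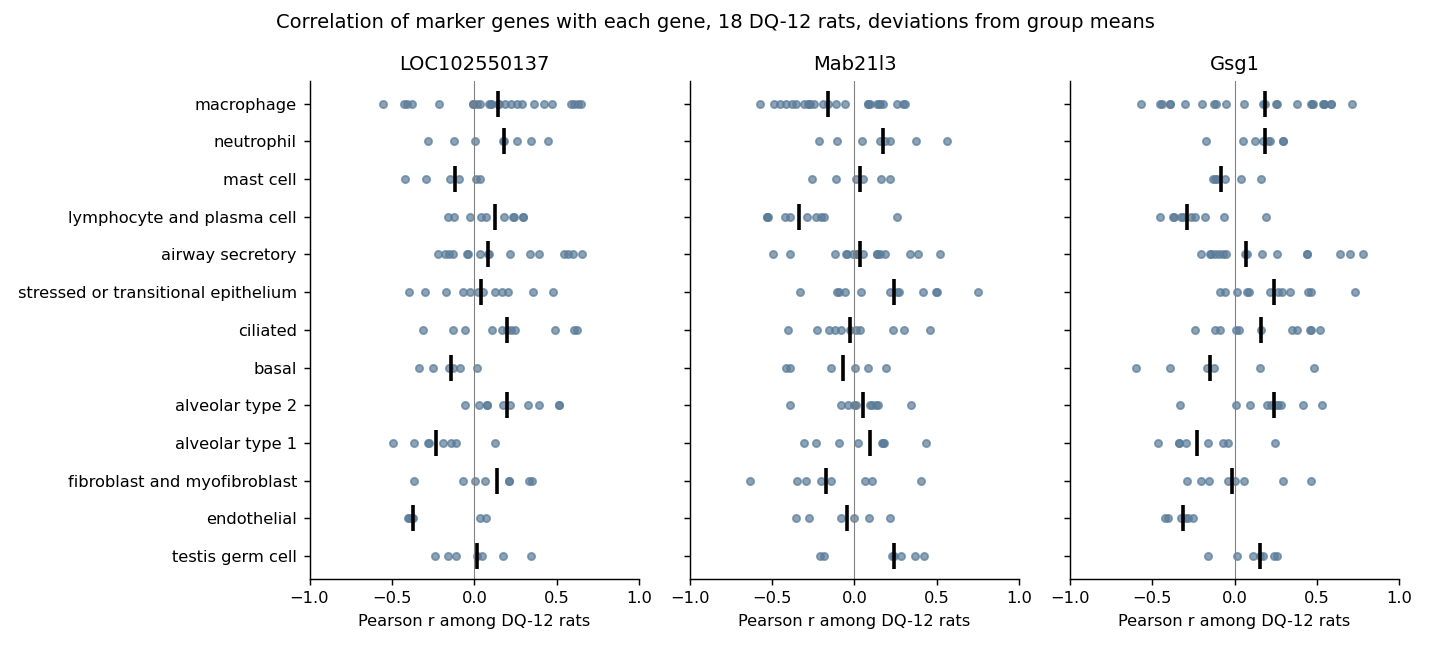
Pearson r among 18 DQ-12 rats (horizontal axis) between the genes of 13 cell type lists (rows, 1 point per gene, black bar at the list median) and each of the 3 genes. Of the 25 macrophage points, 18 lie above 0 for LOC102550137, 15 for Gsg1, and 10 for Mab21l3, and single genes such as Slc26a4 with Gsg1 (0.78) lie far from the median of their list.

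The genes whose pattern over the 18 DQ-12 rats was most like that of each of the 3 genes were taken from 16067 genes well above background on at least 15 of those arrays. For LOC102550137 they were Lig1, a DNA ligase (r = 0.83), Mkln1 (0.83), Pla2g7, the platelet-activating factor acetylhydrolase (0.82), Polk, a DNA polymerase of lesion bypass (0.74), and Lgals1, galectin 1 (0.74). The lowest were LOC679881 (-0.72), Nectin3, an adhesion molecule (-0.72), and Myo10, an unconventional myosin (-0.70). Of these 8 genes, Pla2g7 was a DEG, higher by 2.36 ± 0.19 (SE) at D180 (adjusted p 7.72e-11). Pla2g7 followed LOC102550137 at 0.65, 0.79, and 0.91 within D1, D30, and D180.

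For Mab21l3 they were Slc6a14, an amino acid transporter (0.85), C4bpb, a complement regulator (0.81), Pmvk, of the mevalonate pathway (0.81), Acacb, an acetyl-CoA carboxylase (0.81), and Npepps, an aminopeptidase (0.81). The lowest were Pik3ip1, an inhibitor of PI3 kinase (-0.85), Leprot (-0.85), and Ankmy2 (-0.83). C4bpb was a DEG, higher by 1.38 ± 0.28 (SE) at D30 (adjusted p 0.00237) and 1.43 ± 0.28 at D180 (adjusted p 0.000298). Slc6a14 followed Mab21l3 at 0.94 within D30 and 0.91 within D180 but at 0.08 within D1.

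For Gsg1 they were Hilpda, a lipid droplet protein gene induced by hypoxia (0.86), Fgg, the fibrinogen gamma chain (0.85), Pax8, a transcription factor gene (0.85), Gna13, a G protein subunit (0.85), and LOC102551003, annotated as keratin-associated protein 20-2-like (0.82). The lowest were Lrrc32, an anchor of latent TGF-beta (-0.84), Cadm1, an adhesion molecule (-0.79), and Fcgr3a, an Fc receptor (-0.78). LOC102551003 was a DEG at all 3 times, higher by 2.48, 3.47, and 3.56 on the log2 scale, and Hilpda (1.28 ± 0.14, SE, adjusted p 1.85e-08) and Pax8 (1.45 ± 0.26, adjusted p 9.35e-05) rose at D180. Fgg followed Gsg1 at 0.98 within D180, and at 0.27 and 0.46 within D1 and D30. All 24 genes kept the sign of r within each of the 3 times and without the 2 rats farthest out, where r lay between 0.54 and 0.77 in size. Some values within a time were near 0, such as that of LOC102551003 with Gsg1 within D1 (0.003). These genes were chosen by r over the same 18 rats, which favors keeping the sign, so nothing is read from it. As the extremes of 16067 genes, their permutation p-values (1e-04 to 0.00342 for r and 4e-04 to 0.0359 for rho) are no test of them, and the lowest adjusted p of their slopes was 0.261.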

How the data were processed

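Per the labels, the authors hybridized Cy3-labeled RNA from 36 accessory lung lobes to single-color Agilent arrays and read them with Feature Extraction 12.0.1.1. The deposited files hold spot intensities before and after background subtraction, and the deposited table holds log2 values. These equal the log2 processed intensity minus the 75th percentile of each array, centered on each probe's median (r = 0.99995, median absolute difference 0.00119 over 1641528 values).

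Here, log2 processed intensities were used. Outlier spots (232 to 596 per array of 58717) were left out, and 0 spots were saturated. Probes that exceeded, on 6 or more arrays, the 95th percentile of 308 negative control spots were quantile normalized, and the brightest probe stood for a gene. The methods name a batch correction without its variable, so no batch term was used. A model of 6 group means was fitted in limma 3.58.1 (R 4.3.3, 36 arrays, Benjamini–Hochberg adjustment at each time). Slopes among the 18 DQ-12 rats were fitted in limma with time point in the model, and r and rho of deviations from group means were given a permutation test (100000 resamples within groups) or, at 1 time point, an exact one (720 pairings). r was computed for genes without missing values. The scripts were tested on simulated data.

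The members, lists, and tests were chosen with earlier results of these data known. Named genes were the members, the genes of the family lists, the nearest 2 genes on each side (of which 1 is not reported here), per member the 5 highest and 3 lowest genes by r, and the extremes of each list. The number of arrays limits precision. The labels do not state that arrays of a group came from separate litters or batches, so p-values measure the spread between these rats. Alternatives were 75th percentile scaling, normexp (offset 50), no filter, slide, scan date, or replicate number as a block, the deposited log2 values, single scan dates, array quality as a covariate, and leaving out each rat or time point. A rat genome and exon annotation of the array's build were not used here.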

Additional observations from a re-analysis of the deposited data

Results flagged for a closer look

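Among the 18 groups of 6 rats (3 genes, 6 groups), 1 held a rat far from the others. The LOC102550137 signal of vehicle rat 6 at D30 was 2.05 on the log2 scale, and the next lowest rat of the group was at 3.64. The gap was 0.702 of the range of the group, above the 95% critical value of Dixon's test for 6 samples. The probe was not well above background on either array. Chance alone marks about 1 in 20 groups, and without this rat the log2 difference at D30 was 3.31 in place of 3.64.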

How the results depend on the processing

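All 9 differences between DQ-12 and vehicle rats kept their direction in every alternative run. For single scan dates, the separation of the groups over all rats fixed that direction in advance. Outside the leave-one-out runs, 65 values moved by less than 1 SD between rats and 13 by more. With normexp, all 9 moved by more, to 2.37, 1.53, and 3.36 for LOC102550137, 0.90, 1.66, and 1.38 for Mab21l3, and 1.11, 1.24, and 2.45 for Gsg1 at D1, D30, and D180. In the fit that blocked on slide, LOC102550137 at D180 moved to 4.65 and Gsg1 at D1 to 2.09, and with scan date as a block or within the 1 date that holds both groups, Gsg1 at D1 moved to 1.99. The number of DEGs was 214, 102, and 326 with normexp, in place of 736, 252, and 869. Blocking on slide gave 199 at D1 and 482 at D180, and 176 at D1 with scan date as a block. The cause was not tested. Since the labels number the rats alike in each group, the replicate number was also used as a block. It gave 742, 258, and 886 DEGs and left the differences as they were. Same-numbered rats correlated at -0.131 to 0.218 over 18 pairs, and 4 of 18 DQ-12 rats correlated best with their own number. These correlations are low, and whether a weak pairing by number exists was not tested. Leaving out 1 rat in turn gave 4.67 to 5.13, 3.31 to 3.76, and 5.46 to 6.03 for LOC102550137, 3.08 to 3.34, 4.40 to 4.85, and 3.33 to 4.04 for Mab21l3, and 3.04 to 3.55, 3.05 to 3.46, and 4.74 to 5.54 for Gsg1, and 583 to 954, 197 to 357, and 771 to 1023 DEGs. With normexp, 5 genes tracked Mab21l3 and 6 tracked Gsg1, in place of 0. The count stayed at 0 for all 3 genes in each other alternative and in each leave-one-out run (577 to 2193 genes at an unadjusted p under 0.05, limma). The r of LOC102550137 and Gsg1 ran from 0.64 to 0.73 without each rat (permutation p 0.00388 to 0.0199), that of LOC102550137 and Mab21l3 from -0.21 to 0.16, and that of Mab21l3 and Gsg1 from 0.28 to 0.70. The last passed a permutation p of 0.05 without D1 (0.72, p = 0.0254), without rat 1 of D1 (0.61, p = 0.0469), rat 4 of D1 (0.70, p = 0.0264), or rat 4 of D180 (0.70, p = 0.031). Each gene has 1 probe, so every probe in place of the brightest was no alternative. Signal over background limits what can be said of vehicle levels, and of Mab21l3 in particular.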

Other observations

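With normexp background correction, 5 genes tracked Mab21l3 among DQ-12 rats at an adjusted p under 0.05 (limma slope). Cxcl6, a neutrophil-attracting chemokine gene, had r = 0.83 (0.85 with the processed signal), Csta, a cysteine protease inhibitor of epithelia, 0.86 (0.80), Slc6a14 0.86 (0.85), C4bpb 0.85 (0.81), and Pik3ip1 -0.86 (-0.85). Each had an adjusted p of 0.0314, against 0.18 to 0.397 with the processed signal. For Gsg1 the genes were Hilpda (0.90, adjusted p 0.0178), LOC689770 (0.88), Pax8 (0.87), Cd300ld (0.86), LOC689757 (0.86), and LOC102551003 (0.85), at 0.261 to 0.262 with the processed signal. Cxcl6, Csta, Cd300ld, LOC689757, and LOC689770 were named after their values were seen.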
